A study of Mus musculus with 6 samples.

Results

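Neurexins, neuroligins and leucine-rich repeat transmembrane proteins (LRRTMs) were examined in RNA-seq of mouse brain with and without overexpression of the human long noncoding RNA *AP1AR-DT*. The 9 genes *Nrxn2*, *Nrxn3*, *Nlgn1*, *Nlgn2*, *Nlgn3*, *Lrrtm1*, *Lrrtm2*, *Lrrtm3* and *Lrrtm4* were taken by symbol from the 52390 genes counted, and each of the 9 was among the 21844 genes with enough counts to be tested. The animals of both groups were wild-type male C57BL/6 mice, a common inbred strain, given a recombinant adeno-associated virus (rAAV) into the medial prefrontal cortex at 8 weeks of age. In the 3 AP1AR-DT_OE mice the virus carried *AP1AR-DT*, also named *AC109347.1*, under control of the human synapsin I promoter, a neuronal promoter. In the 3 control mice the vector was empty. The labels name the tissue only as brain, and the study's descriptions name it in one place as prefrontal and in another as cortical. *AP1AR-DT* has no mouse counterpart and is not among the genes counted, so its level was not checked here. Library totals lay between 42061721 and 54668294 counts. The overexpression libraries could not be tied to single mice and are called A, B and C.

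Neurexins are presynaptic adhesion proteins that reach across the synaptic cleft to several postsynaptic partners. Neuroligins are their best known postsynaptic receptors, with *Nlgn1* found mainly at excitatory synapses, *Nlgn2* mainly at inhibitory synapses and *Nlgn3* at both. LRRTMs are a second family of postsynaptic neurexin ligands, found chiefly at excitatory synapses and known for organizing presynaptic terminals and holding AMPA-type glutamate receptors in place.

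Some control libraries stood apart in markers of cells or regions outside the cortex. Choroid plexus markers summed to 3989 normalized CPM, which are counts brought to the same library size, in control 3, against 77.2 and 79.3 in the other controls and 58.3 to 73.1 in the AP1AR-DT_OE libraries. Oligodendrocyte markers summed to 11348 in control 3 and to 5368 to 6858 elsewhere. Hypothalamic markers summed to 684 in control 2 and 95.9 in control 3, against 17.1 in control 1 and 17.3 to 40.2 with overexpression. Of these lists, 5 of 7 choroid plexus, 2 of 8 oligodendrocyte and 6 of 10 hypothalamic markers passed as lower with overexpression. Excitatory neuron markers ranged from 1306 in control 2 to 3474 in AP1AR-DT_OE library B and inhibitory markers from 1036 in control 3 to 2152 in library C, with 0 of 8 and 0 of 7 past the thresholds in edgeR, also at the unadjusted *P* alone, and 1 and 2 past them in DESeq2. The Log2FC of all 8 excitatory markers was above 0 (0.26 to 1.56, median 0.67), and that of the 7 inhibitory markers ran from -0.59 to 0.63. Thalamic markers summed to 1332 in control 3 against 433 to 736 elsewhere, with 2 of 7 past the thresholds as lower. Striatal markers ranged from 353 in control 2 to 2388 in library A. The Log2FC of all 8 striatal markers was above 0 (0.52 to 1.41, median 0.98), with 0 of 8 past the thresholds in edgeR. Of the remaining lists, 2 of 8 astrocyte markers were lower, and 3 of 8 microglia and 2 of 7 endothelial markers were higher. The 3 microglia markers, *Tmem119*, *C1qa* and *C1qb*, overlapped between groups, and 1 other of the 8 was lower in all AP1AR-DT_OE libraries. These edgeR counts of markers past the thresholds stand beside 12.2% of all genes tested. The 10 pan-neuronal markers held to 4994 to 5735, with *Rbfox3* and *Eno2* higher and *Map2* lower. The part of tissue makeup in the differences below was not tested beyond the values given, and in bulk tissue fewer cells of a type cannot be told apart from less RNA per cell.

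To see how strongly each gene is expressed before any comparison, levels were divided by the length of the longest annotated transcript. *Nrxn2* was highest at 80.8 normalized CPM per kb (mean of 6 libraries, range 64.5 to 101), followed by *Nlgn2* at 65.5 (48.0 to 75.1). *Nrxn3* at 23.0 (18.8 to 29.1) and *Lrrtm1* at 22.6 (17.4 to 30.2) formed the next level and overlapped. *Lrrtm3* at 11.03, *Nlgn3* at 9.47, *Lrrtm2* at 9.27, *Lrrtm4* at 7.46 and *Nlgn1* at 4.13 followed, and each neighbouring pair among these overlapped in range. The mean of *Nlgn3* joins 16.8 to 22.6 normalized CPM per kb in 3 libraries with 0 to 0.04 in the other 3. In those last 3 the overlapping gene *Gm21986* had 3611 to 5175 counts, and how counts were divided between the genes was not tested. The place of *Nlgn3* in the order is therefore uncertain. The steps from *Nlgn2* to *Nrxn3* and from *Lrrtm1* to *Lrrtm3* were the only ones between neighbours without overlap. *Nrxn2* and *Nlgn2* overlapped in range, although *Nrxn2* was the higher in 6 of 6 libraries, and with the union of exons as length *Nlgn2* came first and only 3 of 9 ranks were kept.

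*Nrxn2*, *Nlgn2* and *Lrrtm2* passed the thresholds that the study used for differentially expressed genes (DEGs), an unadjusted *P* under 0.05 with |Log2FC| above 0.32. *Nrxn2* and *Nlgn2* were higher in AP1AR-DT_OE mice by 1.26-fold each, and *Lrrtm2* was lower by 1.51-fold. The 3 of 9 are to be read beside 12.2% of all genes tested, of which 5.1% were higher and 7.15% lower, and beside 14.7% of the genes expressed at least as highly as the lowest of the 9. With Benjamini-Hochberg adjustment over all genes, 0 of 9 passed in edgeR's quasi-likelihood test, against 0.0275% of all genes, and 0 in DESeq2, where *Lrrtm2* came nearest (adjusted *P* = 0.0532). DESeq2 called 4 of 9 at the unadjusted thresholds, adding *Lrrtm4* (Log2FC 0.48), beside 9.7% of the 31872 genes to which it gave a *P*. The groups did not overlap for 4 of the 9 genes, the 3 above and *Nlgn1*, beside 22.4% of all genes. The median Log2FC was 0.15 over the 9 genes and -0.01 over all genes tested.

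**Figure D1:**
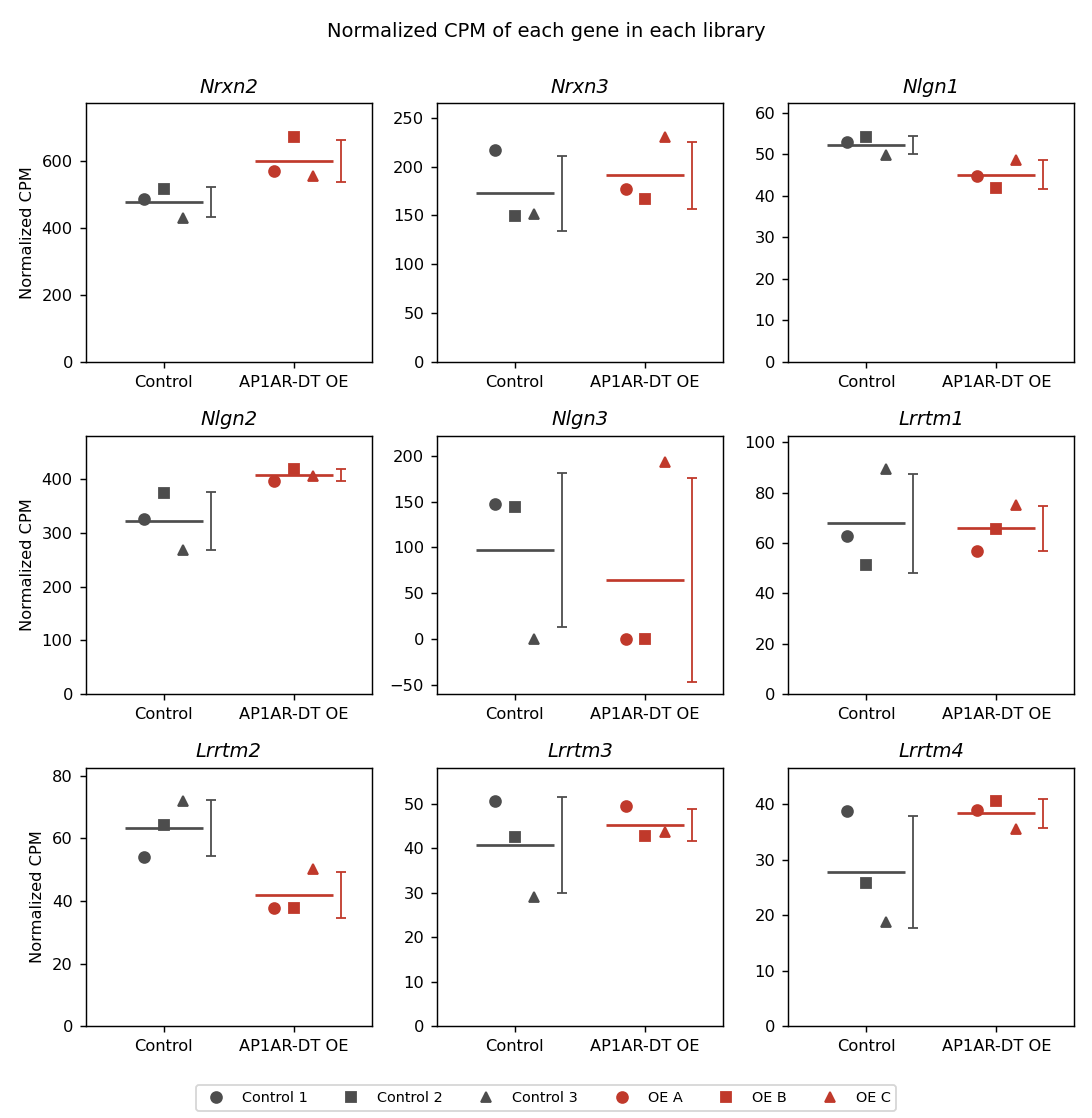
Normalized CPM of the 9 genes in each of the 3 control and 3 AP1AR-DT_OE libraries, with the group mean as a line and the SD as a bar. *Nrxn2* and *Nlgn2* lie higher and *Nlgn1* and *Lrrtm2* lower in all 3 AP1AR-DT_OE libraries. Control 3 is the lowest control for *Nrxn2*, *Nlgn1*, *Nlgn2*, *Nlgn3*, *Lrrtm3* and *Lrrtm4*, and *Nlgn3* falls near 0 in 3 libraries.

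Of the neurexins, *Nrxn2* (chromosome 19, 6418731 to 6544169, GRCm38) encodes presynaptic neurexin-2. It measured 486, 517 and 430 normalized CPM in controls 1, 2 and 3. In AP1AR-DT_OE libraries A, B and C it measured 571, 672 and 556. Every AP1AR-DT_OE library lay above every control, with library B the highest and control 3 the lowest of the 6. The Log2FC was 0.33 ± 0.116 (SE, n = 3 per group) with a 95% interval of 0.05 to 0.60 and an adjusted *P* = 0.296 in edgeR. An exact two-sided permutation test gave *P* = 0.1, the smallest that 3 against 3 allows. Without control 3 the Log2FC was 0.27 and without library B 0.24, and in neither fit did it pass the thresholds.

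*Nrxn3* (chromosome 12, 88722876 to 90334935) encodes neurexin-3 and measured 217, 149 and 151 normalized CPM in the controls and 177, 166 and 230 with overexpression. Control 1 and library C were the high libraries, and the groups overlapped. Its Log2FC of 0.15 ± 0.188 (95% interval -0.29 to 0.59) did not pass (adjusted *P* = 0.73 in edgeR), and it was 0.35 without control 1, 0.063 without control 2, 0.074 without control 3, 0.0073 without library C and -0.18 without controls 2 and 3.

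Of the neuroligins, *Nlgn2* (chromosome 11, 69823122 to 69837784, minus strand) encodes the receptor of inhibitory synapses. It measured 325, 375 and 267 normalized CPM in controls 1 to 3 and 396, 418 and 406 in libraries A to C. The AP1AR-DT_OE libraries lay close together (407 ± 10.9, SD) and all above the controls, which were spread more widely (322 ± 53.7) with control 3 at the bottom. The Log2FC was 0.34 ± 0.130 with a 95% interval of 0.03 to 0.64 and an adjusted *P* = 0.312 in edgeR. The gene passed in 1 of the 6 fits that each left out a library, the one without control 2 (0.47). Without control 3 the Log2FC was 0.23, and without control 1 or library A, B or C it was 0.32 to 0.36 with an unadjusted *P* over the threshold.

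*Nlgn1* (chromosome 3, 25426215 to 26332460, minus strand) encodes the neuroligin of excitatory synapses, and its values ran the other way. It measured 52.9, 54.1 and 49.9 normalized CPM in the controls and 44.8, 41.8 and 48.7 with overexpression. All 3 AP1AR-DT_OE libraries lay under the controls, although the closest pair, library C and control 3, differed little. The Log2FC of -0.21 ± 0.0977 (95% interval -0.44 to 0.02) missed the thresholds (adjusted *P* = 0.351 in edgeR).

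The bases before the starts of *Nlgn2* and *Nlgn1* are given because the transcripts of this pair lie at opposite ends of the range of base composition, which is taken up below. They are the 250 bases upstream of each RefSeq transcript start on GRCm38.p6, 5′ to 3′ on the gene's strand, with each CpG in capitals.
Nlgn2, chr11:69837785-69838034, minus strand: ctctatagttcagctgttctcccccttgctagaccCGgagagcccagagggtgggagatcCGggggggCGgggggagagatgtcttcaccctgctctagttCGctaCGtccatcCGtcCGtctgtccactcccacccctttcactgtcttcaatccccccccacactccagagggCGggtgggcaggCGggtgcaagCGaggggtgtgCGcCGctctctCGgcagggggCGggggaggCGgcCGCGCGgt
Nlgn1, chr3:26331910-26332159, minus strand: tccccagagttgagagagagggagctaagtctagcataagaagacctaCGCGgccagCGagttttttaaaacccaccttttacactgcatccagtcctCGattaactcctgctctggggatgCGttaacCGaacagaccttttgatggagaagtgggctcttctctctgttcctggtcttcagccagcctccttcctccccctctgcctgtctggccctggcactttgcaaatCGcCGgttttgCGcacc
In the window of 300 bases that adds the first 50 bases of the transcript, *Nlgn2* had 26 CpG and 68.7% GC and *Nlgn1* 14 CpG and 55.7% GC, both above the medians of 7 CpG and 52.7% GC over all 32851 such windows. A second, inner start of *Nlgn1* had 6 CpG and 44.7% GC. The motif of NRF1, the transcription factor that the study examined, was searched on both strands. Over its 10 central bases it was found in 0 of the 10 windows of the 6 genes with an entry used here and in 4.6% of all windows. Its core half-site TGCGCA, which reads the same on both strands and was searched after the longer motif gave no match, was found in 1 of the 10, the upstream window of *Nlgn1* shown, and in 7.76% of all windows. The window of mouse *Negr1* likewise held neither the motif nor the half-site, although the study reported NRF1 binding at the human *NEGR1* promoter. These are matches of letters only, bases farther upstream were not searched, and *Nrxn2*, *Nlgn3* and *Lrrtm2* were not among the 6 genes. Binding of NRF1 was not tested here, and the counts of matches cannot be read as a result about it.

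*Nlgn3* (chromosome X, 101299168 to 101325963, plus strand) encodes the neuroligin shared by both kinds of synapse, and its counts were present or nearly absent by library. It had 6018 and 7165 counts in controls 1 and 2 but 2 in control 3. It had 10138 counts in library C but 18 in library A and 0 in library B. The split crossed the groups, and the Log2FC of -0.59 ± 2.42 (adjusted *P* = 0.925 in edgeR) had a 95% interval from -6.31 to 5.12. Without library C alone the same fit gave -9.13, past the thresholds, so 1 library decides its value.

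The annotation has a second gene over *Nlgn3*. *Gm21986*, a processed transcript on the same strand (chromosome X, 101295839 to 101321348), runs from within the end of *Med12* into *Nlgn3*, and its exons hold 2535 of the 2535 coding bases of *Nlgn3*. The 2 genes share 3823 exonic bases, 41.2% of those of *Nlgn3* and 68.8% of those of *Gm21986*. The stretch shown here is coding sequence of *Nlgn3* around the 2 small exons that neuroligin-3 transcripts include or skip, each of 60 bases and in capitals, with 30 bases on each side. The exons lie at chrX:101303072-101303131 and chrX:101307075-101307134, plus strand, GRCm38, and the stretch is the same, base for base, in 1 of the 6 annotated *Nlgn3* transcripts and in that of *Gm21986*.
Nlgn3 and Gm21986: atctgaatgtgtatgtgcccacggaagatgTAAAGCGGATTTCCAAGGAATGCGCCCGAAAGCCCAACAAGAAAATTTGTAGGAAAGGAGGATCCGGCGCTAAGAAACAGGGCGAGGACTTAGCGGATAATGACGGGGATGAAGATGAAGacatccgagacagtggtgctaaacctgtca
A read from this stretch is compatible with either gene.

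*Gm21986* was high where *Nlgn3* was near 0. It had 3611, 4989 and 5175 counts in control 3 and in libraries A and B, 1071 and 1630 in controls 1 and 2, and 0 in library C. Added together, the 2 genes had 7089, 8795 and 3613 counts in controls 1 to 3 and 5007, 5175 and 10138 in libraries A to C. No library then stood near 0, and the 3 libraries with their counts under *Gm21986* were those with the lower sums. The summed Log2FC was -0.14 ± 0.406 (adjusted *P* = 0.888 in edgeR), and the groups overlapped. The neighbour *Med12* held 743 to 1116 counts across the libraries. A count pattern of this kind, with at least 2 libraries over 500 counts and all others, at least 2, under 30, was seen in 15 of the 52390 genes. Of the 52390, 20397 were at 0 in all libraries, and the share among genes with enough counts to show the pattern was not computed. How the counts were divided between the overlapping genes was not tested.

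**Figure D2:**
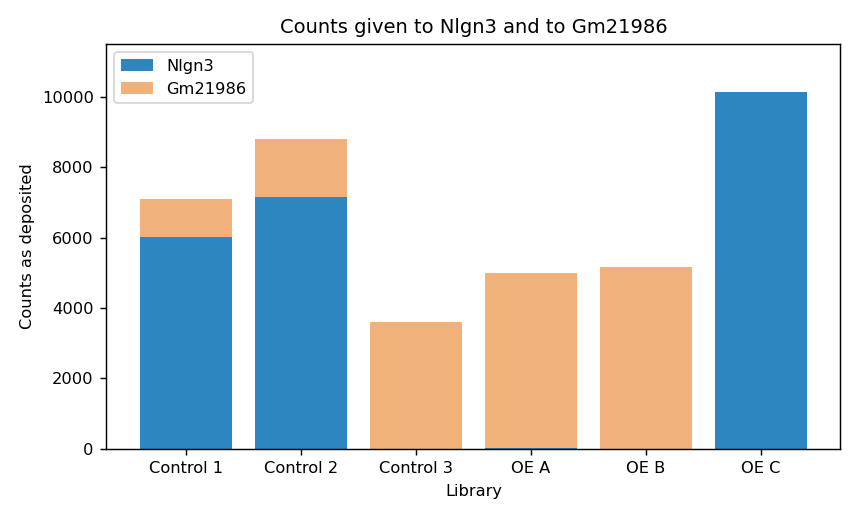
Deposited counts of *Nlgn3* (blue) and of the overlapping gene *Gm21986* (orange) stacked for each of the 6 libraries. Controls 1 and 2 and library C hold 6018 to 10138 counts under *Nlgn3*, whereas control 3 and libraries A and B hold 3611 to 5175 under *Gm21986*.

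Of the LRRTMs, *Lrrtm2* (chromosome 18, 35209003 to 35215024, minus strand) fell. It encodes a neurexin ligand of excitatory synapses and measured 54.0, 64.2 and 71.8 normalized CPM in controls 1 to 3. In libraries A, B and C it measured 37.7, 37.7 and 50.3. Every AP1AR-DT_OE library lay under every control, with library C the nearest to control 1. The Log2FC was -0.60 ± 0.160 with a 95% interval of -0.97 to -0.22 and an adjusted *P* = 0.295 in edgeR, and the exact permutation test gave *P* = 0.1. It passed the thresholds in 6 of 6 fits that each left out a library (-0.73 to -0.48), and without both controls 2 and 3 it was -0.36 and did not pass.

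*Lrrtm1*, *Lrrtm3* and *Lrrtm4* did not pass. *Lrrtm4* (chromosome 6, 80018877 to 80810143) measured 38.8, 25.9 and 18.7 normalized CPM in the controls and 39.0, 40.5 and 35.5 with overexpression, which placed control 1 among the AP1AR-DT_OE libraries. Its Log2FC of 0.46 ± 0.247 (adjusted *P* = 0.405 in edgeR) rested on controls 2 and 3, being 0.78 without control 1, where it passed, and -0.01 without controls 2 and 3. *Lrrtm1* (chromosome 6, 77242689 to 77257791) measured 62.6, 51.3 and 89.3 in the controls and 56.7, 65.7 and 74.9 with overexpression, a Log2FC of -0.04 ± 0.212 that became 0.22 without control 3. *Lrrtm3* (chromosome 10, 63928472 to 64090277, minus strand) measured 50.5, 42.5 and 29.1 in the controls and 49.4, 42.6 and 43.7 with overexpression, a Log2FC of 0.15 ± 0.198 that became -0.03 without control 3. Control 3 was thus the highest library for *Lrrtm1* and *Lrrtm2* and the lowest for *Lrrtm3* and *Lrrtm4*.

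*Lrrtm1*, *Lrrtm2* and *Lrrtm3* each lie inside an alpha-catenin gene on the opposite strand, and the library kit did not mark the strand. Alpha-catenins link cadherins to the actin cytoskeleton. *Ctnna1*, the host of *Lrrtm2*, measured 63.8, 71.1 and 96.0 normalized CPM in the controls and 53.0, 59.5 and 58.6 with overexpression, and it fell as *Lrrtm2* did (Log2FC -0.43 ± 0.160, adjusted *P* = 0.303 in edgeR), with its call lost without control 3 or any 1 of the 3 AP1AR-DT_OE libraries. The annotated exons of *Lrrtm2* and *Ctnna1* share 95 bases. *Ctnna2*, the host of *Lrrtm1*, had a Log2FC of -0.21 and did not pass on size, and *Ctnna3*, the host of *Lrrtm3*, measured at most 1.75 normalized CPM. *Lrrtm4* overlaps the antisense gene *Gm4409* over 1543 exonic bases, and that gene held 38 to 192 counts.

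Base composition ran alongside these differences. The longest transcripts of *Nrxn2* and *Nlgn2* are 62.4% and 60.7% G and C, in the top decile of the genes tested, whereas *Lrrtm2*, *Lrrtm4* and *Nlgn1* at 38.4%, 38.4% and 38.9% are in the lowest. Over all genes the median Log2FC was 0.22 in the top decile, with 381 genes higher and 29 lower past the thresholds, and -0.30 in the lowest, with 10 higher and 481 lower. When a smooth GC curve per library entered the edgeR fit, the Log2FC of *Nrxn2* was 0.03 (95% interval -0.21 to 0.27), that of *Nlgn2* 0.08 (-0.25 to 0.41) and that of *Lrrtm2* -0.29 (-0.60 to 0.02). *Nlgn1* changed sign to 0.08, and *Lrrtm4* moved to 0.78 (95% interval 0.14 to 1.42, adjusted *P* = 0.535 in edgeR). In that fit 1 of 9 genes, *Lrrtm4*, passed the thresholds, beside 7.17% of all genes. Whether the relation to GC content comes from the libraries, from the tissue or from the overexpression cannot be told apart here.

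**Figure D3:**
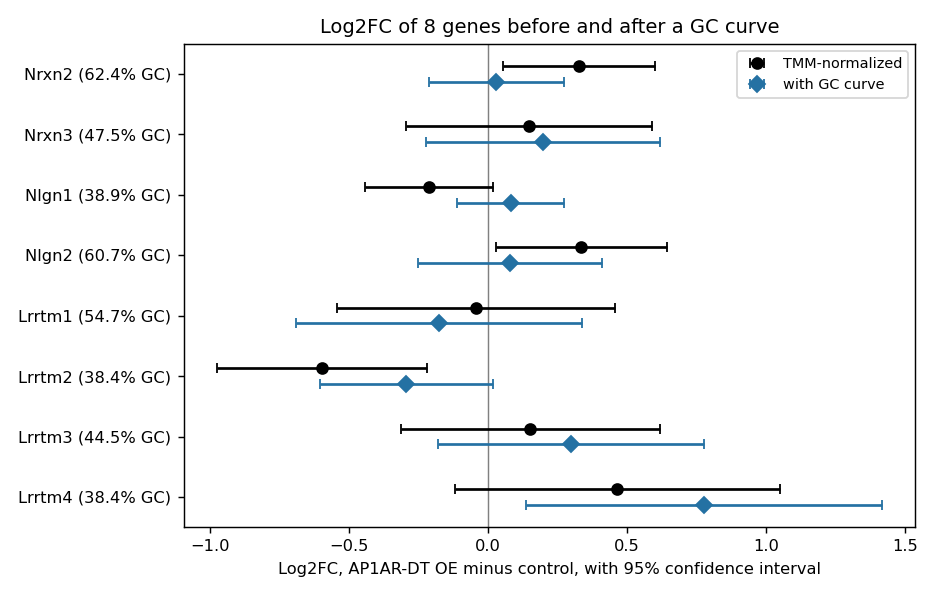
Log2FC (AP1AR-DT_OE minus control) with 95% confidence intervals for 8 genes from the edgeR fit with TMM normalization (black circles) and from the fit with a GC curve per library (blue diamonds), with the GC content of each longest transcript; *Nlgn3* is left out because its interval spans -6.31 to 5.12. The GC curve moves *Nrxn2* from 0.33 to 0.03, *Nlgn2* from 0.34 to 0.08 and *Lrrtm2* from -0.60 to -0.29, and moves *Lrrtm4* from 0.46 to 0.78.

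Set against pan-neuronal markers, as a log2 difference within each library, *Lrrtm2* alone of the 9 kept groups that did not overlap, beside 17.4% of all genes. It was lower by a log2 difference of -0.64, with relative values of -3.07, -2.62 and -2.69 in the controls and -3.53, -3.68 and -3.08 with overexpression. Library C and control 1 were almost level (exact permutation *P* = 0.1, n = 3 per group). *Nrxn2* (0.29) and *Nlgn2* (0.31) then overlapped between groups, with control 2 reaching the AP1AR-DT_OE values. Against excitatory markers 0 of 9 genes were separated. The mean log2 level of these markers, centred over the 6 libraries, ran from -2.22 in control 2 to 1.74 in library B. The share over all genes was not computed for them, so this count cannot be read as a result about the 9 genes.

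The partners of these proteins were taken from 7 lists of 100 genes, of which 99 were tested. Of the 99, 11 were higher and 9 lower at the same thresholds, and the median Log2FC was 0.00. The 20.2% called stand beside 12.2% of all genes tested and 13.5% of the protein-coding genes. Of the genes expressed at least as highly as the lowest of the 9, 14.7% were called. The lowest adjusted *P* was 0.295 in edgeR. Leaving out each library in turn, 4 of the 20 genes passed every time, *Adgrl1*, *Lrfn4*, *Lin7c* and *Nova2*. With the GC curve described above none of these 4 passed in edgeR (0.17, 0.14, -0.10 and 0.25), and without controls 2 and 3 *Lrfn4* alone of the 4 did. Over all genes, 1620, 1430 and 3508 passed without libraries A, B and C, and 3391, 2204 and 2430 without controls 1, 2 and 3. The number of partner genes past the thresholds moved with these counts. It was 10, 6 and 29 without libraries A, B and C, and 24, 16 and 20 without controls 1, 2 and 3. Without both controls 2 and 3 it was 10, of which 2, *Mdga2* and *Lrfn4*, were among the 20.

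Among 19 tested further ligands of neurexins, 4 were higher and 1 lower. *Adgrl1*, a latrophilin, measured 387, 337 and 339 normalized CPM in the controls and 487, 500 and 415 with overexpression (Log2FC 0.40 ± 0.110, SE). *Clstn1*, a calsyntenin, measured 798, 770 and 775 in the controls and 1002, 1122 and 883 with overexpression (Log2FC 0.36). All AP1AR-DT_OE libraries lay above the controls for this pair. *Nxph3*, a neurexophilin, was at 28.0 and 49.0 normalized CPM in libraries A and B but at 6.40 in library C and 6.27 to 8.89 in the controls, and *Igsf21* (0.61) likewise overlapped at library C. *Cbln1*, a secreted cerebellin that bridges neurexins to glutamate receptor delta subunits, was high at 59.7 and 71.2 in controls 2 and 3 and at 10.7 in control 1, just under the 11.8 to 21.1 of the AP1AR-DT_OE libraries. Without controls 2 and 3 its Log2FC was 0.49 instead of -1.65.

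Of 7 genes that hold neuroligins back or bind LRRTMs, 1 was higher and 2 lower. The MDGA proteins bind neuroligins and keep neurexins from them, and the pair diverged. *Mdga1* measured 65.6, 59.1 and 45.7 normalized CPM in the controls and 82.4, 68.1 and 84.0 with overexpression (Log2FC 0.46 ± 0.156). *Mdga2* measured 50.6, 55.8 and 45.0 in the controls and 36.4, 37.4 and 41.7 with overexpression (Log2FC -0.39 ± 0.115). Neither pair of groups overlapped, *Mdga1* has 58.7% GC and *Mdga2* 42.2%, and with the GC curve the values were 0.25 and -0.18, neither past the thresholds. *Ptprd*, a receptor phosphatase of presynaptic terminals, had a Log2FC of -0.48, with control 1 inside the AP1AR-DT_OE range.

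Of 33 other synaptic adhesion genes 3 were higher and 3 lower. The 3 that rose were of the Lrfn family, which encodes postsynaptic SALM proteins. *Lrfn1* (0.35), *Lrfn2* (0.43) and *Lrfn4* (0.50 ± 0.115) had no overlap between groups, and their GC content was 63.5%, 57.1% and 65.6%. The AT-richer *Lrfn5* had a Log2FC of -0.22 and did not pass on size. *Slitrk6* and *Ntng1* were high in control 3, at 27.2 and 133 normalized CPM against at most 7.91 and 31.2 elsewhere, and *Tenm1*, a teneurin, had a Log2FC of -0.52.

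Of 18 intracellular partners, *Dlg4*, the postsynaptic scaffold PSD-95, was higher (0.34), and *Lin7c* (-0.43) and *Magi1* (-0.45), also scaffolds, were lower. Of 11 regulators of neurexin splicing, *Rbfox3* (0.40) and *Nova2* (0.42) were higher. None of 8 sheddases of neurexins and neuroligins passed the thresholds in edgeR or DESeq2, and 1, the gamma-secretase subunit gene *Aph1a*, had an unadjusted *P* under the threshold in edgeR (Log2FC 0.24). The 11 partner genes that were higher had 46.8% to 65.6% GC, 10 of them over 56%, and the 9 that were lower had 37.3% to 56.2%. With the GC curve 8 of the 99 passed, 3 higher and 5 lower, beside 7.17% of all genes. Of these 8, 6 were among the 20 above.

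**Figure D4:**
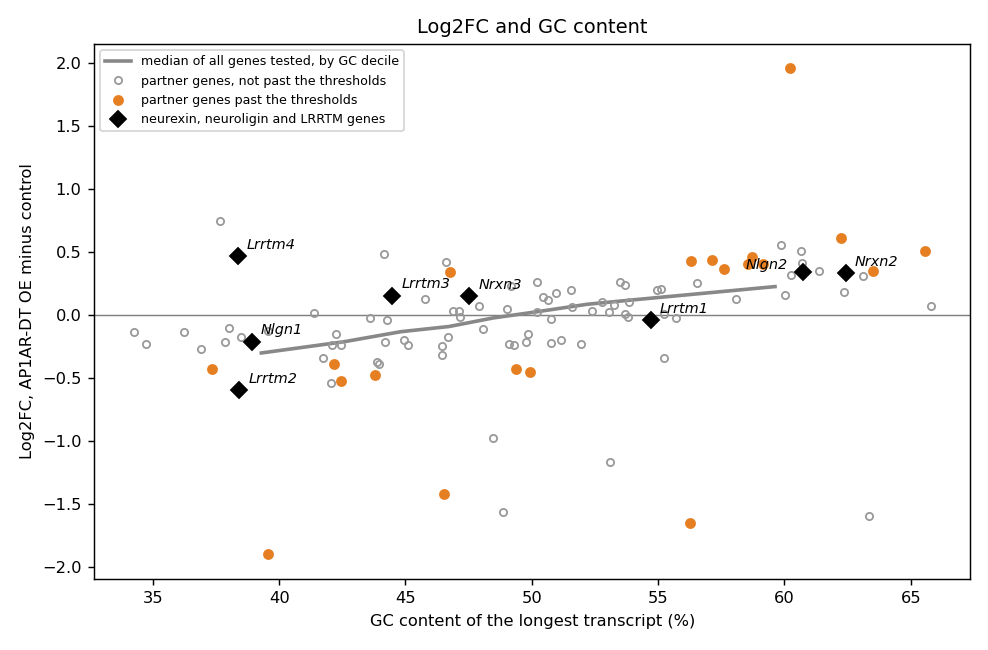
Log2FC (AP1AR-DT_OE minus control) against the GC content of the longest transcript for 8 of the 9 genes (black diamonds, *Nlgn3* left out) and for the 99 partner genes, filled where past the DEG thresholds, with the median of all genes tested in each GC decile as a grey line. *Nrxn2* and *Nlgn2* lie above 60% GC at 0.33 and 0.34, *Lrrtm2* lies below the line and *Lrrtm4* above it at 38.4% GC.

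*Negr1*, the adhesion gene on which the study centred, measured 187, 197 and 154 normalized CPM in the controls and 151, 127 and 147 with overexpression (Log2FC -0.34 ± 0.123, adjusted *P* = 0.297 in edgeR). Its 3 AP1AR-DT_OE libraries lay under the controls, as those of *Lrrtm2* did. *Negr1* passed the study's unadjusted thresholds (unadjusted *P* = 0.0267 in edgeR). The study also reported lower *Negr1* RNA by qPCR and lower protein by Western blotting in AP1AR-DT_OE mice. The mean standardized profile of the 9 genes was highest in library C (0.49) and control 1 (0.34) and lowest in control 3 (-0.62). Of 6369 genes compared over the 6 libraries, *Qrich1* (Pearson's r = 0.99), *Rnps1-ps* (0.98), *Sox1* (0.97), *Efnb3* (0.96) and *Oscp1* (0.96) followed it most closely. These correlations are descriptions over 6 points that share depth and tissue makeup, and of the 5 genes none passed the thresholds between groups. The mean profile includes *Nlgn3*, with its counts near 0 in some libraries, and averages genes that moved in opposite directions.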

How the data were processed

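Tissue of 3 control and 3 AP1AR-DT_OE mice was sequenced by the authors with a TruSeq kit that does not mark strand. The authors' methods name FastQC, Bowtie2 at default settings on GRCm38 and StringTie with known GENCODE transcripts, from whose coverage whole-number counts per gene were deposited without normalization. Bowtie2 does not split reads at introns. The submitters' processing notes name other tools (TopHat2 2.0.4, SAMtools, HTSeq, Cuffdiff, edgeR 2.6.12 and mm9), and the difference could not be settled. The deposited columns of the authors' own DESeq2 comparison (mean, Log2FC, standard error, score and P-values) were not used.

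Groups came from the labels. Nothing states separate dissections, so P-values measure the spread between these libraries. Coordinates, exons and GC content are from GENCODE vM21, in which 52081 of 52390 identifiers were found (GC content for 21817 of the 21844 genes tested). Coordinates listed in the table were left out. Counts were filtered with filterByExpr, scaled with TMM and tested with edgeR 4.0.16 (R 4.3.3), two-sided quasi-likelihood F-test, Benjamini-Hochberg adjustment. The standard errors rest on 3 libraries per group (common biological coefficient of variation 0.313). Log2 CPM used a prior count of 2. Smooth GC and length curves were splines with 5 degrees of freedom over 13992 genes. The scripts were tested on simulated data. The genes named are the 9, the partner and marker genes past the thresholds, *Negr1*, genes overlapping the 9, and the 5 genes most like their mean profile among those with a mean log2 CPM above 5. *Lrfn5*, *Aph1a* and *Med12* were named after their values were seen. The 9 genes and all lists were chosen with earlier results of these data known. Alternatives were DESeq2 1.42.0, its size factors, library totals alone, limma-voom (limma 3.58.1), no count filter, at least 10 counts in every library, GC and length curves and leaving out each library. A mean GC content over transcripts, the sum of *Nlgn3* and *Gm21986*, and leaving out controls 2 and 3 were chosen after seeing the data.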

Additional observations from a re-analysis of the deposited data

How the results depend on the processing

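*Lrrtm2* was below 0 and *Nrxn2* and *Nlgn2* above 0 in each of 18 fits. *Lrrtm2* passed the thresholds in 8 of the 11 fits other than those leaving out 1 library, failing with either GC curve and without controls 2 and 3, *Nrxn2* likewise in 8 of 11, and *Nlgn2* in 9 of 11. The count of the 9 genes past the thresholds was 3, but 1 with the GC content of the longest transcript, 1 with mean GC content over transcripts, 1 without controls 2 and 3, and 1 to 3 when each library was left out in turn. Over all genes it was 2675, but 1564 and 1567 with the GC curves and 1430 to 3508 with a library left out. The median Log2FC of the 9 genes ranged from 0.0073 to 0.34 with a library left out and was -0.16 without controls 2 and 3. Relative to pan-neuronal markers 1 gene was separated, and 1 to 3 with a library left out. Against excitatory markers the count was 0, with the limit given above. With the union of exons as length 3 of 9 ranks were kept.

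*Nlgn1* changed sign with either GC curve (0.081 and 0.027). *Lrrtm1* changed sign without control 3 (0.22), without library A (0.055) and without controls 2 and 3 (0.072), its range with a library left out being -0.20 to 0.22, and *Lrrtm3* without control 3 (-0.027, the range being to 0.34) and without controls 2 and 3 (-0.16). Without controls 2 and 3, *Lrrtm4* (-0.013) and *Nrxn3* (-0.18) changed sign as well. The cause was not tested. DESeq2 gave no *P* for *Nlgn3*, and the filter of 10 counts removed it. No paired analysis was possible because the groups share fewer than 2 replicate numbers and the AP1AR-DT_OE columns carry no mouse number. The precision of each difference is limited by 3 libraries per group and is given by its 95% interval.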
